A study of Mus musculus with 4 samples.

Results

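Solute carriers are membrane proteins that move small molecules across cell and organelle membranes. The genes examined here encode the solute carriers expressed in mouse platelets, the blood cells without a nucleus that form clots. They were taken from 2 deposited tables of platelet RNA sequencing by a rule on name and level: protein coding, listed in both tables, a symbol of the form Slc followed by a family number and the letter a, and a deposited value of at least 50 in at least 1 library. Before the level was applied, 224 symbols had this form, of which 185 were in both tables and 39 in only 1; none of those 39 reached 50. Of the 185, 79 stayed below 50 and 9 that reached it were left out by name, which left 97 members of the 14652 genes in both tables. The names left out were Slc4a1, Slc18a2, Slc6a4, Slc2a3, Slc16a3, Slc40a1, Slc25a38, Slc25a39 and Slc27a2, while the tenth, Slc11a2, did not reach the level. The members were thus selected on measured values, so that 60 of them reached 50 in all 4 libraries and 15 in only 1. A member that reached the level in 1 library alone had to differ between libraries, and counts and medians over the members are given as descriptions, with no test. Just inside the level stood Slc9a8 with a highest value of 50.5, Slc30a5 with 51.5 and Slc23a2 with 51.6. Just outside it stood Slc36a4 with 48.6, Slc2a1 with 48.1 and Slc35a5 with 47.8. The rule on names also takes 3 genes that encode no transporter: Slc9a3r1 and Slc9a3r2, which encode scaffold proteins first found with a sodium-proton exchanger, and Slc4a1ap, which encodes an adaptor protein.

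The 4 libraries each held the platelet RNA of 7 male mice, pooled before sequencing. The library labelled cKO came from mice with a conditional, platelet-specific deletion of HuR (the RNA-binding protein encoded by Elavl1), at 3 months of age, and WT from their wild-type littermates of the same age. Old came from wild-type mice of 24 months and Young from wild-type mice of 3 months. The Cre driver of the deletion, and whether the WT littermates carry any engineered allele, are not given in the sources used here. As each group has 1 library, no difference could be checked against replicates: each ratio compares 2 libraries, and its 95% interval (exact, Clopper-Pearson) covers counting error only. Reads amplified by PCR and not tagged by molecule are not independent, and the spread between pools of mice was not measured.

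Solute carriers fall into numbered families that share a fold and often a substrate. Some work at the cell surface, where sodium, proton or exchange gradients drive nutrient and ion uptake, and others at the Golgi, lysosome or inner mitochondrial membrane. In platelets they are best known for filling the dense granules, for taking up glucose and serotonin, and for keeping cell pH and calcium in balance. Platelets have no nucleus, so their messenger RNA is inherited from the megakaryocyte, and a difference in bulk RNA cannot tell fewer cells of a type from less RNA per cell.

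Read totals recovered from the deposited values lay between 17702341 and 18472149 per library. Elavl1, the targeted gene, had 1481 reads in the library labelled cKO and 876 in WT, and 527 in Old and 621 in Young. Its ratio, the library labelled cKO over WT, was 1.66 (1.53 to 1.81), so no loss of its reads was seen, and every direction given for that library follows its label and not a measured loss of HuR. Counts per gene cannot show whether an exon was deleted. All 20 platelet and megakaryocyte markers were present in both tables, at 65000 RPM (read counts normalised to sequencing depth) in the library labelled cKO, 77800 in WT, 84900 in Old and 71600 in Young. The 21 erythroid markers present in both tables summed to 16600 RPM in the library labelled cKO and 8780 in WT, and to 11900 in Old and 22300 in Young. Neutrophil markers summed to 43.4 RPM in the library labelled cKO and 69.7 in WT, and to 831 in Old and 33.1 in Young, over the 10 of 16 in both tables. B cell markers summed to 527 and 583 RPM in the library labelled cKO and WT, and to 131 and 482 RPM in Old and Young. Monocyte and macrophage markers stood between 4140 and 5020 RPM over the 4 libraries, but Lyz2 and F13a1, the second of which platelets express as well, made 98.6% to 99.3% of these reads. The other 12 summed to 32.3 RPM in the library labelled cKO and 44.7 in WT, and to 61.8 in Old and 31.4 in Young. T and NK cell markers stood between 55.5 and 107 RPM. The labels state no sort or gate.

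Slc44a1, which encodes a choline transporter of the cell surface and mitochondria, was the most abundant member in every library. Together the members took 0.385% of reads in the library labelled cKO (Wilson interval 0.383 to 0.388), 0.307% in WT (0.305 to 0.310), 0.458% in Old (0.455 to 0.461) and 0.348% in Young (0.346 to 0.351). Slc44a1 alone held 33.1% of the members' reads in the library labelled cKO, 27.3% in WT, 28.9% in Old and 22.4% in Young. Levels between genes are compared as RPKM, the recovered reads scaled to the deposited gene length and to the library total. Slc44a1 averaged 152 RPKM over the 4 libraries. It was followed by Slc24a3 (a potassium-dependent sodium-calcium exchanger) at 93.5, Slc38a10 (of the sodium-coupled neutral amino acid family) at 63.5, Slc39a4 (a zinc importer) at 43.9 and Slc48a1 (a haem transporter of endolysosomes) at 32.1. The next 5 were Slc25a5 at 23.5, Slc25a10 at 21.7, Slc44a2 at 21.5, Slc7a5 at 19.9 and Slc35a4 at 15.7 RPKM. Below these the members ran down to 0.165 RPKM for Slc38a9, a lysosomal amino acid sensor. The order was not the same in every library: Slc38a10 at 69.1 RPKM stood above Slc24a3 at 49.7 in the library labelled cKO, whereas Slc24a3 was higher in WT (84.0 against 42.8 for Slc38a10), in Old (148 against 84.5) and in Young (92.1 against 57.7). For all 9 pairs of neighbours among these 10 the ranges over libraries overlapped, but such ranges do not compare genes within a library. Within every library Slc44a1 stood above Slc24a3, Slc38a10 above Slc39a4, and Slc39a4 above Slc48a1. The other pairs of neighbours changed order between libraries.

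**Figure D1:**
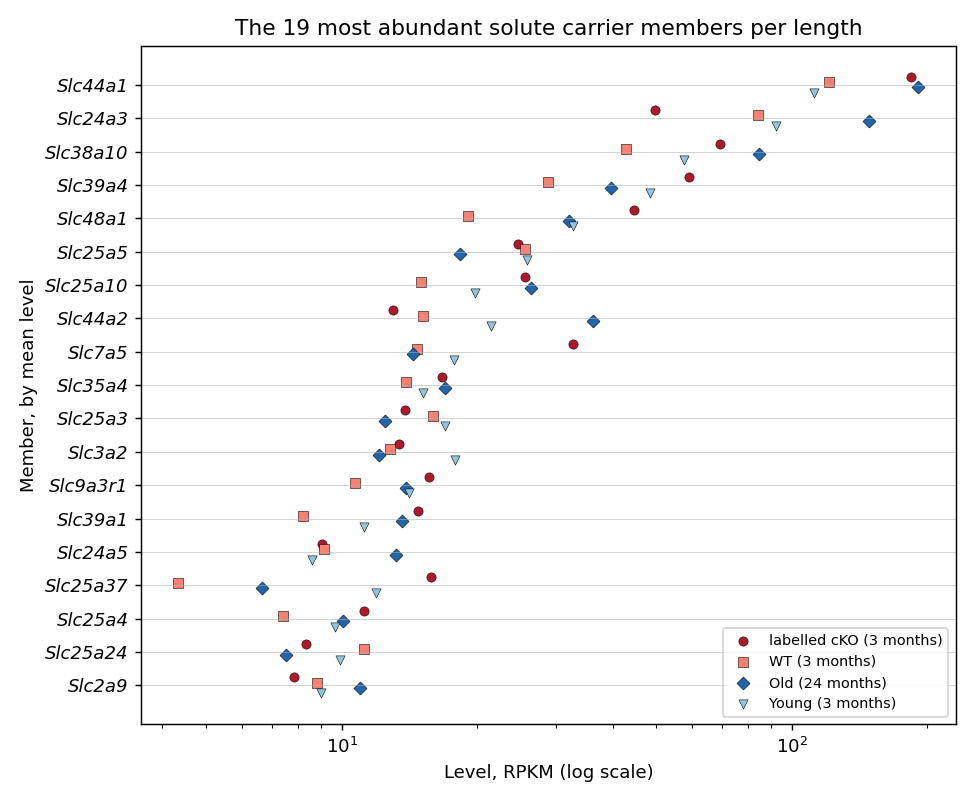
Level in RPKM (log axis) of the 19 members with the highest mean, one row per gene and one point per library, with no error bars since each group has 1 library. Slc44a1 sits highest in all 4 libraries, at 184 RPKM in the library labelled cKO, 121 in WT, 191 in Old and 112 in Young, and Slc24a3 and Slc25a37 show wide gaps between libraries.

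By substrate, 27 of the 97 members were mitochondrial carriers, 15 carried metals or haem, 13 amino acids and related amines, and 13 protons, bicarbonate and inorganic ions. Another 7 carried vitamins, peptides and other organic solutes, 5 nucleosides, nucleotide sugars or acetyl-CoA, 4 sugars and polyols, 3 lipids or choline and 3 monocarboxylates and other organic acids. The substrate of 4 was orphan or unsettled, and 3 were the genes that encode no transporter. Classes follow the family, so that a dopamine transporter and a taurine transporter sit with the amino acids.

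Between the library labelled cKO and WT, 2 members rose and 1 fell. Slc25a37, the mitochondrial iron importer mitoferrin, and Slc48a1 rose, and Slc25a12, an aspartate-glutamate carrier of the inner mitochondrial membrane, fell. Here "rose" and "fell" mean that the larger count reached 100 reads and that the whole interval lay at least 2-fold away from 1. The 2 were among 60 members with at least 100 reads in 1 of both libraries, where 2.52% of all 6273 such genes rose, and the 1 stood beside 1.71% of genes that fell. Of the members, 96 had 20 reads or more in the 2 libraries together, and their median log2 ratio was -0.01 (quartiles -0.50 and 0.51), and that of all genes was -0.01. The 96 ran from -2.76 for Slc25a35 to 2.46 for Slc15a3, both with fewer than 100 reads in either library. By class the median was highest for lipids and choline (0.56, 3 members), where it was -0.13 with Young in place of WT. It was 0.47 for metals and haem, 0.31 for amino acids, -0.11 for mitochondrial carriers, -0.06 for ions and -0.33 for vitamins, peptides and other organic solutes. Summed reads, which follow the most abundant members, gave another picture. Their ratio was 1.39 (1.36 to 1.41) for lipids and choline, 1.65 (1.59 to 1.71) for metals and haem and 1.48 (1.44 to 1.52) for amino acids. It was 1.10 (1.07 to 1.13) for mitochondrial carriers and 0.748 (0.726 to 0.770) for ions. Slc24a3 held 51.2% of the ion carriers' reads in the library labelled cKO and 66.8% in WT. Of the 13 ion carriers, 6 had a log2 ratio above 0, so the sum does not describe the class. In the library labelled cKO the sum of mitochondrial carriers was higher while their median was lower. Slc25a37 alone had 1685 of the 9823 reads of this class there, and 470 of 8771 in WT. Its ratio was 3.52 over WT but only 1.42 over Young, so the higher sum follows this gene and does not describe the class.

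Between Old and Young, 7 members rose and 1 fell. Those that rose were Slc22a4, Slc9a3r2, Slc25a35, Slc14a1, Slc30a1, Slc45a4 and Slc22a23, and Slc15a2, a proton-coupled importer of short peptides, fell. They were among 67 members with at least 100 reads in 1 of both libraries, where 4.26% of all 6519 such genes rose and 4.30% fell. The median log2 ratio of the 97 members was 0.11 (quartiles -0.39 and 0.69), and that of all genes was -0.06. The ratios ran from -2.67 for Slc15a2 to 2.51 for Slc22a4, and 54 of 97 were above 0. With total reads as library sizes the medians were -0.05 for members and -0.22 for all genes, a shift of -0.16 that applies to every gene. By class the median was 0.91 for lipids and choline (3 members), 0.81 for those of orphan or unsettled substrate (4 members), 0.31 for metals and haem and -0.17 for mitochondrial carriers, and these kept their direction under total reads and median-of-ratios scaling. The medians of amino acids (0.03), vitamins, peptides and other organic solutes (0.11) and ions (-0.01) did not. Summed reads of the ion carriers had a ratio of 1.59 (1.56 to 1.63) although their median was -0.01, and Slc24a3 held 76.2% of them in Old and 67.9% in Young. For mitochondrial carriers the ratio of summed reads was 0.927 (0.901 to 0.954).

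**Figure D2:**
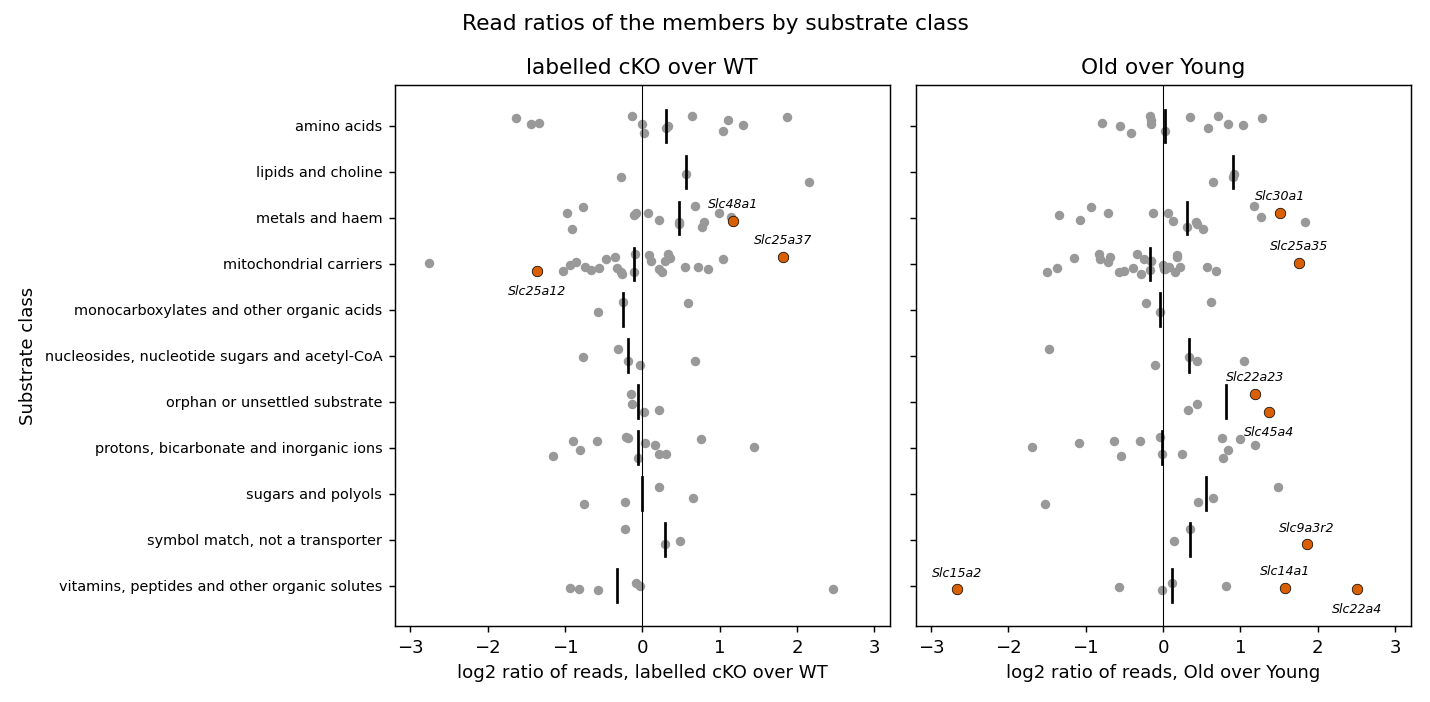
Log2 ratio of reads over scaled library sizes for each member (points, vertical scatter random) by substrate class, for the library labelled cKO over WT (left) and Old over Young (right), among members with 20 reads or more in the pair. Bars are class medians and orange points are the 3 members (left) and 8 members (right) past the 2-fold rule; medians of lipids and choline (0.91) and of orphan or unsettled substrates (0.81) lie highest in Old over Young, and total reads as library sizes would move every right-hand point by -0.16.

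No member passed the rule in both comparisons, and 86 passed it in neither. Of the 69 members with at least 100 reads in 1 library of either comparison, 58 passed in neither, beside 6010 of 6803 such genes. Of all genes in both tables, 265 passed it in the library labelled cKO over WT and 555 in Old over Young, and 27 passed it in both, which was 10.2% of the first list and 4.86% of the second. With 3 and 8 members past the rule, nothing is read from the lack of a shared one. WT and Young are both wild-type libraries of 3 months, and their ratio shows how far 2 such pools lay apart; it shares a library with each comparison and is independent of neither. Of 62 members with at least 100 reads in WT or Young, none was higher in WT by the rule, where 0.439% of all 6373 such genes were, and Slc25a37 was lower, where 0.565% were. When Young took the place of WT, 2 of 64 members rose in the library labelled cKO (2.07% of all genes did) and none fell (0.793% did), but the 2 were Slc41a3 and Slc7a7, neither of which rose over WT. When WT took the place of Young, 7 of 65 members rose in Old (4.54% of all genes did), of which 4 had also risen over Young, and Slc15a2 fell again (4.22% of all genes did).

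Among the lipid and choline carriers, Slc44a1 (ENSMUSG00000028412, mm10 chromosome 4, 53440413 to 53622478, plus strand) had 22579 reads in the library labelled cKO and 15071 in WT, a ratio of 1.47 (1.44 to 1.5). Old had 24457 reads and Young 14146, a ratio of 1.89 (1.85 to 1.93). It was highest in Old and in the library labelled cKO, and below the 2-fold rule in both comparisons. Slc44a2, a related choline transporter (chromosome 9, 21320698 to 21355028, plus strand), had 1998 reads in the library labelled cKO and 2367 in WT, a ratio of 0.829 (0.781 to 0.881). In Old it had 5799 reads and in Young 3384, a ratio of 1.88 (1.80 to 1.96), and against WT the ratio of Old was 2.45 (2.34 to 2.58). Old was thus the highest library for both choline carriers, while the library labelled cKO was the lowest for Slc44a2. Slc27a4, a fatty acid transport protein, had 29, 6, 50 and 35 reads in the library labelled cKO, WT, Old and Young, too few to pass the rule.

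The ion carriers were led by Slc24a3 (ENSMUSG00000063873, chromosome 2, 145167754 to 145642166, plus strand), which exchanges sodium against calcium and potassium. It had 4018 reads in the library labelled cKO and 6895 in WT, a ratio of 0.573 (0.551 to 0.595), and 12479 in Old and 7627 in Young, a ratio of 1.79 (1.74 to 1.84). The library labelled cKO was the lowest of the 4 and Old the highest, with WT and Young close together at a ratio of 0.988 (0.956 to 1.02). Against Young the library labelled cKO stood at 0.578 (0.556 to 0.600) and against WT Old stood at 1.81 (1.76 to 1.87), so that both differences were of the same size with either wild-type library, below 2-fold in each case. Slc24a5, an exchanger of pigment organelles, had a ratio of 1.72 (1.5 to 1.97) in Old over Young, but 39.5% of its exon bases overlap another gene, Myef2, in the annotation, and whether strand was used in counting is not stated in the sources used here. Slc20a2, a sodium-phosphate cotransporter, had 142 and 125 reads in the library labelled cKO and WT and 266 and 127 in Old and Young, with a ratio of 2.29 (1.85 to 2.86) in Old over Young.

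Slc38a10 led the amino acid carriers (chromosome 11, 120103960 to 120151346, minus strand). It had 7851 reads in the library labelled cKO and 4938 in WT, a ratio of 1.56 (1.51 to 1.62), and 10020 in Old and 6718 in Young, a ratio of 1.63 (1.58 to 1.68). WT was the lowest of the 4 libraries. Slc7a5, the light chain of the large neutral amino acid exchanger (chromosome 8, 121881150 to 121907694, minus strand), had 2147 reads in the library labelled cKO and 980 in WT, a ratio of 2.15 whose lower bound of 1.99 missed the rule. With total reads or median-of-ratios scaling the ratio was 2.22 or 2.19 and passed it. Old had 985 reads of it and Young 1200, a ratio of 0.899 (0.825 to 0.979), so the library labelled cKO stood alone, at 1.96 (1.83 to 2.11) times Young. Slc3a2, the heavy chain that Slc7a5 and Slc7a7 need to reach the cell surface, had 838 reads in the library labelled cKO and 812 in WT, a ratio of 1.01 (0.920 to 1.12), and 788 in Old and 1147 in Young, a ratio of 0.752 (0.686 to 0.824). Heavy and light chain thus did not share their highest library. Slc7a7, a light chain for cationic and neutral amino acids, had 136 and 54 reads in the library labelled cKO and WT, a ratio of 2.47 (1.79 to 3.46), and 92 and 49 in Old and Young, a ratio of 2.06 (1.44 to 2.97).

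The remaining named amino acid carriers did not pass the rule. Slc1a4, a neutral amino acid exchanger, had 55 reads in the library labelled cKO, 147 in WT, 128 in Old and 156 in Young, with a ratio of 0.368 (0.265 to 0.504) in the library labelled cKO over WT. Slc6a3, the dopamine transporter, had 22, 68, 171 and 77 reads in the same order, with a ratio of 0.318 (0.187 to 0.521) in the library labelled cKO over WT and 2.43 (1.85 to 3.23) in Old over Young. Its larger count against WT was below 100 reads, and its lower bound against Young was below 2. Slc6a6, the taurine transporter, had 723, 574, 1198 and 878 reads, and its ratio was 1.24 (1.11 to 1.38) for the library labelled cKO over WT and 1.49 (1.37 to 1.63) for Old over Young. With Young in place of WT its direction turned, to 0.903 (0.817 to 0.998) in the library labelled cKO.

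Among metal and haem carriers Slc39a4 (chromosome 15, 76612383 to 76617384, minus strand) had 3245 reads in the library labelled cKO and 1601 in WT, a ratio of 1.99 (1.87 to 2.12). In Old it had 2277 and in Young 2729, a ratio of 0.914 (0.864 to 0.966), whereas Old over WT was 1.43 (1.34 to 1.52). Slc48a1, which moves haem out of endolysosomes into the cytosol (ENSMUSG00000081534, chromosome 15, 97778520 to 97792692, plus strand), had 2167 reads in the library labelled cKO and 947 in WT, a ratio of 2.25 (2.08 to 2.43). Old and Young were nearly level at 1626 and 1632 reads, a ratio of 1.09 (1.02 to 1.17). For both genes WT was the lowest of the 4 libraries, at 0.641 times Young for Slc39a4 and 0.634 times Young for Slc48a1. Against Young the library labelled cKO had ratios of only 1.30 (1.24 to 1.37) and 1.46 (1.37 to 1.55), and neither passed the rule.

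The zinc exporter Slc30a1 (chromosome 1, 191906767 to 191913247, plus strand) rose in Old. It had 286 reads in Old and 110 in Young, a ratio of 2.85 (2.28 to 3.58), while the library labelled cKO had 170 and WT 176. WT over Young was 1.75 (1.37 to 2.24), so Young was the low library, and Old over WT was 1.63 (1.34 to 1.98). The zinc importers showed no single direction in Old over Young: Slc39a1 had a ratio of 1.35 (1.19 to 1.53), Slc39a6 of 1.05 (0.929 to 1.18) and Slc39a3 of 0.474 (0.326 to 0.678). In the library labelled cKO over WT, Slc39a1 had 621 and 349 reads, a ratio of 1.75 (1.53 to 2.00), and Slc39a6 had 255 and 491, a ratio of 0.510 (0.437 to 0.595). Slc39a1 has a pseudogene copy in the annotation, which its reads may share. Slc41a3, of a magnesium transporter family, had 350 and 214 reads in the library labelled cKO and WT, a ratio of 1.61 (1.35 to 1.91), and 218 and 105 in Old and Young, a ratio of 2.27 (1.79 to 2.90). The count in Young was the lowest of the 4, and the library labelled cKO stood at 3.66 times Young. Slc11a1, a divalent metal transporter of phagosomes, had 27, 19, 50 and 15 reads in the library labelled cKO, WT, Old and Young, too few for the rule.

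Mitochondrial carriers made the largest class, and held the member that fell and the higher of the 2 that rose in the library labelled cKO over WT. Slc25a37 (ENSMUSG00000034248, chromosome 14, 69241848 to 69285112, minus strand), which brings iron to mitochondria for haem synthesis and is known from erythroid cells, had 1685 reads in the library labelled cKO and 470 in WT, a ratio of 3.52 (3.18 to 3.91). Old had 740 reads and Young 1299, a ratio of 0.624 (0.569 to 0.683), but Old over WT was 1.58 (1.40 to 1.77), the opposite direction. The library labelled cKO and Young were high and WT and Old low, so that WT over Young was 0.395 (0.355 to 0.440) and the library labelled cKO over Young only 1.42 (1.32 to 1.53). Erythroid markers moved with it: 10 of 15 tested rose and 1 fell in the library labelled cKO over WT, with a median log2 ratio of 1.52, 6 were lower in WT than in Young by the rule, and their median in Old over Young was -0.23. Alas2, the erythroid enzyme that starts haem synthesis, had 22424 reads in the library labelled cKO and 5972 in WT, and 12520 in Old and 20867 in Young. Klf1 was at 0 in Young, and the part of red cell RNA in the differences of Slc25a37, Slc48a1 and Slc39a4 was not tested.

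Slc25a12, also called aralar, belongs to the malate-aspartate shuttle that carries reducing equivalents to mitochondria (ENSMUSG00000027010, chromosome 2, 71271063 to 71367749, minus strand). It had 384 reads in the library labelled cKO and 966 in WT, a ratio of 0.391 (0.346 to 0.440). Old had 579 and Young 904, a ratio of 0.701 (0.631 to 0.779). Here WT and Young were the high pair, at a ratio of 1.17 (1.07 to 1.28), and the library labelled cKO was the lowest against either: over Young it was 0.466 (0.412 to 0.526), just short of the rule. Slc25a11, the oxoglutarate-malate carrier of the same shuttle, had 302 and 257 reads in the library labelled cKO and WT, a ratio of 1.15 (0.974 to 1.37), and 240 and 261 in Old and Young, a ratio of 1.01 (0.841 to 1.2).

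The carriers of adenine nucleotides and phosphate, which serve ATP synthesis, did not pass the rule in either comparison. Slc25a5, an ADP/ATP translocase (chromosome X, 36795651 to 36798807, plus strand), had 717 reads in the library labelled cKO and 755 in WT, a ratio of 0.933 (0.841 to 1.03). In Old it had 555 and in Young 771, a ratio of 0.788 (0.705 to 0.880). A pseudogene copy of Slc25a5 is in the annotation, so its reads are uncertain. Slc25a3, the phosphate carrier, had ratios of 0.837 (0.778 to 0.900) for the library labelled cKO over WT and 0.819 (0.761 to 0.880) for Old over Young. Slc25a4, another ADP/ATP translocase, lay on the other side of 1, with 468 reads in the library labelled cKO and 313 in WT, a ratio of 1.47 (1.27 to 1.70), and 440 in Old and 413 in Young, a ratio of 1.17 (1.02 to 1.34). Slc25a10, the dicarboxylate carrier, was higher in both, with 1561 reads in the library labelled cKO and 929 in WT, a ratio of 1.65 (1.52 to 1.79), and 1683 in Old and 1240 in Young, a ratio of 1.49 (1.38 to 1.60). Slc25a51, which brings NAD into mitochondria, had 1060 and 577 reads in the library labelled cKO and WT, a ratio of 1.80 (1.63 to 2.00), and 739 and 795 in Old and Young, a ratio of 1.02 (0.920 to 1.13). Slc25a35, a carrier of unsettled substrate, rose in Old, at 109 reads in Old and 35 reads in Young (ratio 3.41, 2.31 to 5.14), and had 5 reads in the library labelled cKO and 36 in WT. Its exons overlap those of Rangrf over 31.3% of their bases, so part of these reads cannot be assigned to it with certainty.

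Among carriers of vitamins, peptides and other organic solutes stood both the lowest and the highest member ratio of Old over Young. Slc15a2 (ENSMUSG00000022899, chromosome 16, 36750177 to 36784962, minus strand) had 21 reads in Old and 149 in Young, a ratio of 0.154 (0.0928 to 0.245). The library labelled cKO had 144 and WT 250, a ratio of 0.566 (0.458 to 0.697), and Old over WT was 0.0842 (0.0512 to 0.132). Old was the lowest of the 4 libraries, and the interval bound nearest to 1 lay beyond 4-fold against Young. Slc22a4, which takes up the antioxidant ergothioneine (ENSMUSG00000020334, chromosome 11, 53983123 to 54028090, minus strand), had 101 reads in Old and 19 in Young, a ratio of 5.82 (3.54 to 10.1). The library labelled cKO had 12 reads and WT 4, and Old over WT was 25.3 (9.58 to 94.7) against only 4 reads. Slc22a4 was a member through its level in Old alone. For Slc14a1, the urea transporter known from red cells and kidney vessels (chromosome 18), Old held 287 reads and Young 105, a ratio of 2.99 (2.39 to 3.78). The library labelled cKO held 96 and WT 182, a ratio of 0.518 (0.400 to 0.667). WT lay between Old and Young, at 1.89 (1.48 to 2.43) times Young. Slc22a3, an organic cation transporter, led the class by reads and had ratios of 0.669 (0.570 to 0.784) in the library labelled cKO over WT and 0.986 (0.854 to 1.14) in Old over Young.

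Neutrophil and B cell markers separated the same libraries. All 10 neutrophil markers in both tables rose in Old over Young, with a median log2 ratio of 4.89. Their ratios ran from 6.64 for Retnlg, with 661 reads in Old and 109 in Young, to 475 for Lcn2, with 434 and 1. Of the B cell markers 7 of 11 tested fell in Old over Young, with a median of -1.62, and 3 of 7 monocyte and macrophage markers rose (median 0.74). Of the T and NK cell markers 2 of 7 tested fell, with a median of -0.92. Platelet markers had a median of 0.48 with 1 of 19 that rose. Lcn2 was at 0 in the library labelled cKO, Cd14 in Young, and Cx3cr1 and Klrd1 in Old. The part of other blood cells in the differences of Slc22a4, Slc15a2, Slc11a1 or any other member was not tested.

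All 4 members of orphan or unsettled substrate had ratios above 1 in Old over Young, and 2 of them rose. Among all genes 5530 of 11694 measured had a log2 ratio above 0, and 4.26% of the 6519 with at least 100 reads rose. With 4 members grouped only for want of a settled substrate, nothing is read about a class. Slc45a4, placed in a sugar transporter family by sequence (chromosome 15, 73577424 to 73645762, minus strand), had 1410 reads in Old and 595 in Young, a ratio of 2.59 (2.36 to 2.86), while the library labelled cKO had 571 and WT 553. Slc22a23, an orphan of the organic ion family (chromosome 13, 34179158 to 34345182, minus strand), had 1394 reads in Old and 670 in Young, a ratio of 2.28 (2.08 to 2.50), and 582 in the library labelled cKO and 633 in WT. For both genes the other 3 libraries lay close together, with WT over Young at 1.02 and 1.03. Old over WT was 2.55 (2.31 to 2.82) for Slc45a4 and 2.21 (2.01 to 2.43) for Slc22a23, and both passed the rule against either wild-type library. With total reads as library sizes Slc22a23 missed it in Old over Young, at 2.04 (1.86 to 2.24). Slc35a4, the most abundant of the class, had a ratio of 1.25 (1.14 to 1.36) in Old over Young and Slc10a3 one of 1.36 (1.03 to 1.79), neither past the rule. The exons of Slc10a3 overlap those of Ubl4a over 12.8% of their bases.

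Slc35a2, which carries UDP-galactose into the Golgi, had 321 reads in Old and 170 in Young, a ratio of 2.07 (1.71 to 2.50), and 84 in the library labelled cKO and 94 in WT. Old over WT was 3.42 (2.71 to 4.35), which passed the rule. Slc29a3, a nucleoside transporter of lysosomes, had 26 reads in Old against 80 reads in Young, and 58 in the library labelled cKO and 71 in WT. Of the monocarboxylate family Slc16a12 (a creatine transporter) had ratios of 0.675 (0.558 to 0.816) in the library labelled cKO over WT and 0.976 (0.835 to 1.14) in Old over Young, and Slc16a10 (for aromatic amino acids) had 1.51 (1.26 to 1.81) and 0.861 (0.742 to 0.997). Both directions of Slc16a10 turned with the other wild-type library, to 0.823 (0.708 to 0.955) in the library labelled cKO over Young and 1.61 (1.35 to 1.93) in Old over WT. Slc2a9, a urate transporter of the glucose transporter family, was the most abundant of the sugar class, with 707 reads in the library labelled cKO and 808 in WT, a ratio of 0.860 (0.776 to 0.952), and 1036 in Old and 829 in Young, a ratio of 1.37 (1.25 to 1.5). Slc50a1, a glucose transporter of the SWEET family, had 24 reads in Old and 77 in Young, a ratio of 0.341 (0.206 to 0.546), and 38 in the library labelled cKO and 63 in WT. The scaffold gene Slc9a3r2 rose in Old, at 224 reads in Old and 67 reads in Young (ratio 3.66, 2.77 to 4.88), and had 138 in the library labelled cKO and 111 in WT. Young was its lowest library, and Old over WT was 2.02 (1.60 to 2.56).

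**Figure D3:**
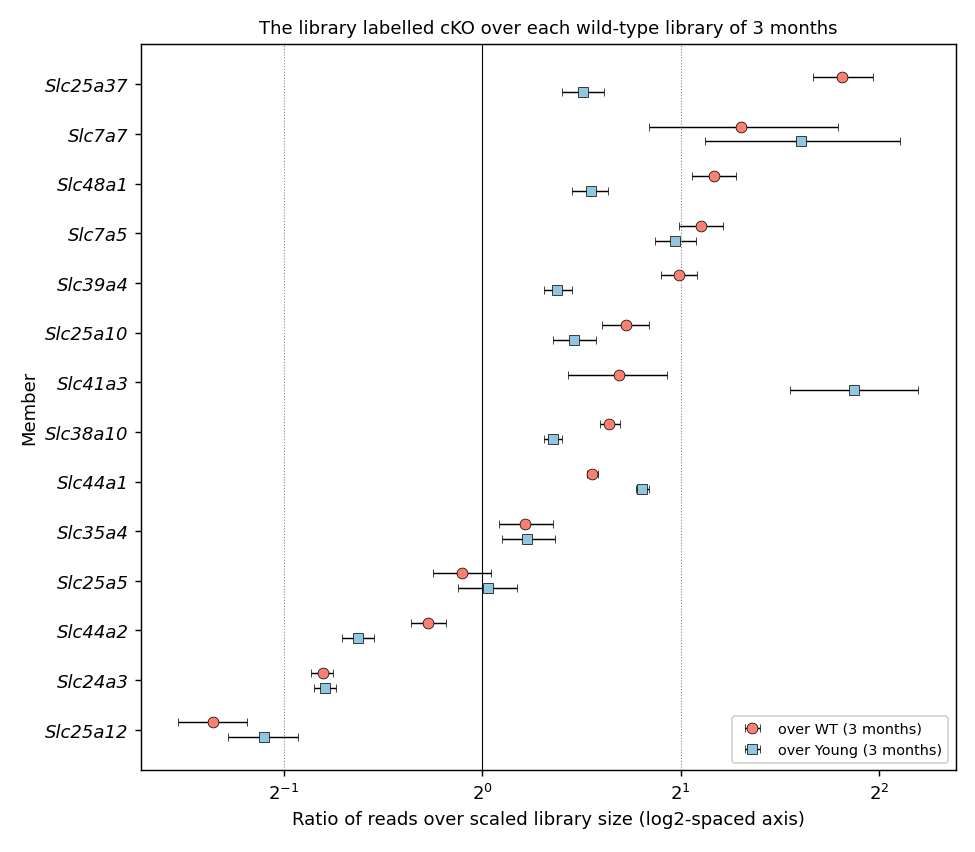
Ratio of reads over scaled library size (log2-spaced axis) of the library labelled cKO over WT (circles) and over Young (squares), for the 10 most abundant members and those past the rule against either, with 95% counting intervals. Slc24a3 lies at 0.573 over WT and 0.578 over Young, whereas Slc25a37 lies at 3.52 over WT and 1.42 over Young.

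Which members passed depended on the wild-type library. None of the 3 members past the rule over WT passed it over Young, and Slc41a3 (3.66) and Slc7a7 (3.04) passed it only over Young. Of the 265 genes in both tables past the rule over WT, 101 (38.1%) passed it in the same direction over Young, out of 184 over Young (54.9%), so most calls of the library labelled cKO over WT were lost among all genes too. In Old, Slc22a4, Slc25a35, Slc45a4 and Slc22a23 rose and Slc15a2 fell against both wild-type libraries, Slc30a1 (1.63), Slc14a1 (1.58) and Slc9a3r2 (2.02) did not rise over WT, and Slc39a13, Slc35a2 and Slc44a2 rose over WT only. Slc22a4 and Slc25a35 were members through Old alone, so the selection favoured their rise against either library. Of the 555 genes in both tables past the rule in Old over Young, 323 (58.2%) passed it in the same direction over WT, out of 554 over WT (58.3%), beside 5 of 8 members. The comparisons share libraries, so their values are set side by side and are not independent.

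**Figure D4:**
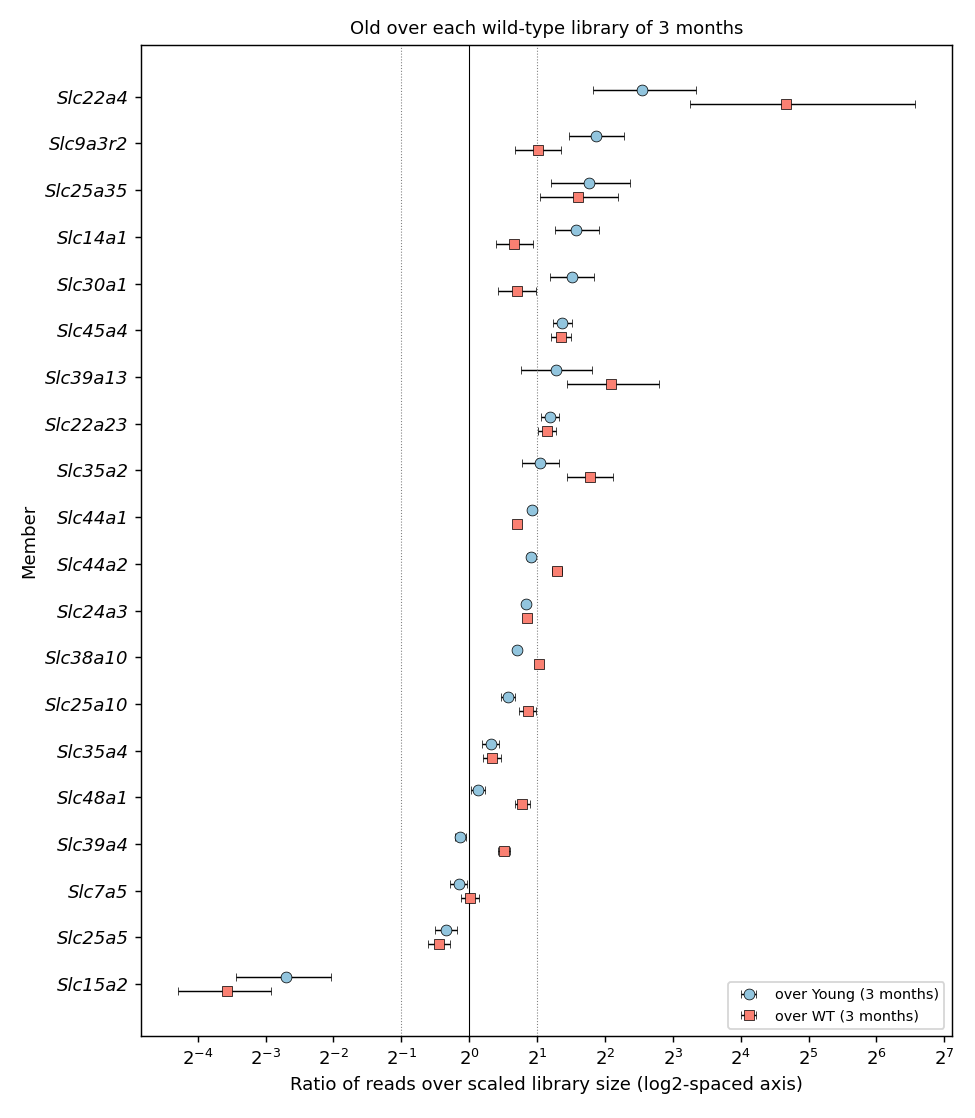
Ratio of reads over scaled library size (log2-spaced axis) of Old over Young (circles) and over WT (squares), for the 10 most abundant members and those past the rule against either, with 95% counting intervals. Slc45a4 lies at 2.59 over Young and 2.55 over WT, and Slc15a2 at 0.154 and 0.0842.

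Other genes of membrane transport were counted from lists. Of the proteins that escort monocarboxylate transporters, Bsg (basigin) rose in Old, at 8428 reads in Old and 3922 reads in Young (ratio 2.35, 2.27 to 2.44), and had 4809 in the library labelled cKO and 3687 in WT. Of 11 ABC transporters tested in Old over Young, Abca2 and Abcb9 rose and Abcc4, which exports cyclic nucleotides and is known from the dense granules of human platelets, fell to 393 reads in Old, against 1709 reads in Young (ratio 0.252, 0.225 to 0.281). None of 10 passed in the library labelled cKO over WT, where Abcc4 had 929 reads against 1587 in WT. Neither comparison had a call among the sodium pump subunits (3 tested), the solute carriers with other letters (6 tested) or the regulators of transport and nutrient sensing (11 tested). The same held for mitochondrial transport genes outside the family, with 11 tested in the library labelled cKO over WT and 10 in Old over Young. Vdac1, the main pore of the outer mitochondrial membrane, had 10072 reads in Old and 5524 in Young, a ratio of 2.00 (1.93 to 2.06).

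In the authors' deposited table, 5 of the 97 members (5.15%) had an adjusted p under 0.05 in cKO over WT, where 3.79% of all listed genes did. These were Slc25a37 and Slc25a12, with log2 fold changes of 1.82 (adjusted p = 0.00274) and -1.36 (adjusted p = 0.0424) in the authors' deposited table, and Slc38a5, Slc15a3 and Slc25a35. In Old over Young the authors' deposited table had 12 of 97 (12.4%), the same share as all listed genes (12.4%): Slc15a2 at -2.69 (adjusted p = 2.79e-05), Slc22a4 at 2.53 (adjusted p = 0.000194), the other 6 members that rose, and Slc29a3, Slc6a3, Slc11a1 and Slc50a1. These p-values compare 2 libraries each, not the conditions, and the test behind them is not stated in the sources used here. Slc48a1, which rose in the library labelled cKO over WT by the size rule, was not among the 5 members. Slc15a3 had 36 reads in the library labelled cKO and 6 in WT, and its ratio over Young was 1.16 (0.706 to 1.91). Its exons overlap those of Tmem132a over 28.1% of their bases.

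RefSeq promoter entries (GRCm38.p6) matched 71 of the 97 members, taking the 250 bases before the start. Short motifs of 3 factor families active in blood cells were searched on both strands, after the levels were known. The letters AGATAA, which GATA factors can recognise, were found in 7 of 71 (9.86%), against 6.12% of 9695 protein-coding genes with an entry. The letters CCGGAA, the core of many ETS sites, were found in 19 (26.8%), against 22.6% of these genes. The E-box letters CACGTG were found in 9 (12.7%), against 8.26% of these genes. Promoters were drawn for the 3 most abundant members and for 6 of the 11 past the rule, without Slc25a37, Slc48a1, Slc14a1, Slc25a35 and Slc45a4. Of these 9 promoters, those of Slc15a2 and Slc22a4 held a match. Shown are the most abundant member, the one that fell in the library labelled cKO, and the members with the lowest and highest ratio in Old over Young, each on the gene's own strand with motif letters in capitals.
Slc44a1, chr4:53440163-53440412, plus strand: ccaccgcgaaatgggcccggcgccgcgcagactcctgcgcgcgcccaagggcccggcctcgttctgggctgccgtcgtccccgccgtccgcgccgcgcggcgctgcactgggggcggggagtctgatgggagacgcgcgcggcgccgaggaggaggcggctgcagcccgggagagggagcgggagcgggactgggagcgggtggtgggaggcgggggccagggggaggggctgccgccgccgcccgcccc
Slc25a12, chr2:71367756-71368005, minus strand: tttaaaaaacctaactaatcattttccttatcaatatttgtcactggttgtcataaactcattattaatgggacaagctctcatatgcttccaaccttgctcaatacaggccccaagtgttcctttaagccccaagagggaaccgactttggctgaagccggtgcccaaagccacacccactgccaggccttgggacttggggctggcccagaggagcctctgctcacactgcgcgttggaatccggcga
Slc15a2, chr16:36784963-36785212, minus strand: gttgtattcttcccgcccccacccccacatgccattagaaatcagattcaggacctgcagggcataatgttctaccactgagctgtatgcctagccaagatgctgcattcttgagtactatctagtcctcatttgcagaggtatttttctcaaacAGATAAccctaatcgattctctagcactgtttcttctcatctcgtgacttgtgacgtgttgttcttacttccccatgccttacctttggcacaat
Slc22a4, chr11:54028105-54028354, minus strand: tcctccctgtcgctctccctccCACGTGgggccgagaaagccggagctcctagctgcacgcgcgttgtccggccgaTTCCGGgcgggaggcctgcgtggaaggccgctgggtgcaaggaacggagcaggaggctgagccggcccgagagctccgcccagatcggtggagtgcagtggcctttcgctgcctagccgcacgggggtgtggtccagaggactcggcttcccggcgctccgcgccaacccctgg
The capitals mark the GATA motif in Slc15a2, and in Slc22a4 the E-box motif followed by the ETS motif on the opposite strand, with no overlap between them. G and C made 81.2% of the Slc44a1 stretch, 71.2% of that of Slc22a4, 49.6% of that of Slc25a12 and 45.2% of that of Slc15a2. A match is a description of letters and says nothing of binding.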

How the data were processed

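Platelet RNA of 4 pools of mice was sequenced, 1 library per group. The submitters' processing notes name the genome build mm10 and 4 tools without role or order: CASAVA, HISAT2 (2.0.5), featureCounts (1.5.0-p3) and DESeq2 (1.20.0). How strand and multi-mapped reads were handled is not given. The authors deposited 2 tables whose signal columns, judged from their values, are reads per gene scaled within each table. Dividing by the worth of 1 read in a library gave whole reads within 0.02 read for 100.00% of values. The planned design assumed counts, and these recovered reads stood in for them. The authors' deposited tables further hold log2 fold changes, p-values with their adjusted form, and gene lengths. A further 4 per-sample columns match no sample by name and were not used.

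For each pair of libraries, TMM factors from edgeR 4.0.16 (R 4.3.3) scaled the library sizes. Ratios, exact intervals and figures were made in Python 3.11.15 with scipy 1.17.1, pandas 2.3.3, numpy 2.4.6 and matplotlib 3.10.9. The scaling and the size rule were checked on simulated counts, and the recovery of reads was not. The simulated counts held counting error only, without PCR duplicates or spread between pools. The check therefore does not give the error of the rule in these data. Log2 medians used a pseudocount of 0.5 read and genes with at least 20 reads over both libraries. Comparisons across the 2 separately scaled tables used recovered reads of the 14652 genes in both. A count of 0 allows up to 3 reads, or 0.162 to 0.169 RPM. Exon overlap and pseudogenes come from GENCODE M21 (mm10).

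The members and lists were chosen with earlier results of these data known, and so were the size rule and the motifs. Named members are those past the rule, the 3 most abundant and the most different of each class, and the 10 most abundant overall. Slc6a6, Slc7a7, Slc10a3, Slc11a1, Slc25a4, Slc25a11, Slc25a51, Slc29a3, Slc38a9, Slc39a3, Slc39a6, Slc39a13, Slc41a3 and the members named from the authors' deposited table were chosen after their values were seen. Alternatives were other library scalings, count minimums, folds, membership levels, pseudocounts, the deposited values and the other wild-type library. Some members are not reported here by name.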

Additional observations from a re-analysis of the deposited data

How the results depend on the processing

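The 2 members higher and 1 lower in the library labelled cKO over WT became 4 and 2 with no minimum count, 10 and 4 with an interval bound of 1.5-fold, and 0 and 0 with 4-fold. With Young in place of WT 0 were lower, and the 2 that were higher shared 0 members with those over WT: Slc25a37 (1.42), Slc48a1 (1.46) and Slc25a12 (0.466) were no longer past the rule. The 7 higher and 1 lower in Old over Young became 17 and 2 with a bound of 1.5-fold, and 0 were higher with 4-fold. With WT in place of Young 7 were higher, of which 4 were shared, and Slc30a1 (1.63), Slc9a3r2 (2.02) and Slc14a1 (1.58) were no longer past it. The members' median log2 ratio in Old over Young (0.11) was -0.05 with total reads and 0.31 with WT in place of Young; a move of up to 0.1 was counted as none. With total reads Slc22a23 (2.04) lost its call, and Slc7a5 (2.22, or 2.19 with median-of-ratios scaling) gained one. None of the 3 and 8 ratios past the rule changed direction in its own comparison under the scalings or the other wild-type library. Ratios not past it did: with intervals clear of 1 on both sides, 3 of 97 members turned in the library labelled cKO with Young in place of WT, Slc16a10 and Slc6a6 among them, and 4 in Old with WT in place of Young, among them Slc16a10, Slc25a37 and Slc39a4. Alternatives chosen after seeing the data left out the 3 genes that encode no transporter, or members with 10% or more exon overlap, and each left 6 higher in Old over Young and no other count changed. No paired analysis was possible because each group has 1 library, and no library can be left out of a comparison. Depth limits members under 100 reads, whose differences were often not detectable.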
